A study of Mus musculus with 6 samples.

Results

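Fragments of nuclear tRNA-Leu are small RNAs cut from the cytoplasmic tRNAs that carry leucine to the ribosome. They were taken as all sequences for which every assigned annotation named a mature nuclear tRNA-Leu, and 2432 of the 38798 sequences in the deposited table met that rule. The sequences were 15 to 45 nt long. The table assigned them to mature-tRNA-Leu-AAG, mature-tRNA-Leu-TAG, mature-tRNA-Leu-CAG, mature-tRNA-Leu-CAA and mature-tRNA-Leu-TAA, alone or together, which gave 11 anticodon sets. It also gave each a position class: 142 were 5′ ends, 25 ended in the CCA tail of the mature tRNA (CCA ends), 62 were 3′ ends without CCA, and 2203 lay elsewhere in the mature tRNA (internal). A sequence assigned to more than 1 anticodon was kept in a set of its own, such as AAG+TAG, because its counts cannot be split between the tRNAs. Such shared sequences numbered 417 and held 52.7% of the tRNA-Leu counts. A further 66 sequences that named a tRNA-Leu beside another tRNA were left out, and would have added 0.294% to the counts.

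The RNA came from wild-type smooth muscle cells of the mouse pulmonary artery, grown as primary cultures. These cells give the arteries of the lung their tone. The hypoxia group had been kept at 3% oxygen for 24 hours and the normoxia group in ordinary culture, with 3 biological replicates in each. The libraries were made by Pandora-seq, which uses enzymes to take off RNA modifications that would otherwise block adapter ligation or reverse transcription. The sources used here do not say how many animals gave the cells or what a replicate number stands for, and a table of tRNA fragments holds no marker by which the cell type could be checked.

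Leucine tRNAs share with serine tRNAs a long variable arm between the anticodon stem and the T stem. Like other tRNAs they are trimmed at both ends after transcription, receive a CCA tail, and carry many modified bases, among them a dimethylated guanosine between the D stem and the anticodon stem and a methylated adenosine in the T loop. In tRNA-Leu-AAG the first anticodon base is deaminated to inosine, which sequencing reads as G. Cleavage in the D, anticodon and T loops gives 5′ and 3′ fragments, and a CCA-ending fragment of tRNA-Leu-CAG is known from human and mouse cells for binding messenger RNAs of ribosomal proteins.

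The mature tRNA sequences are shown first because every position below is counted on them from base 1 at the 5′ end. They were built by joining overlapping fragments of the table itself, and capitals mark the anticodon.
tRNA-Leu-AAG: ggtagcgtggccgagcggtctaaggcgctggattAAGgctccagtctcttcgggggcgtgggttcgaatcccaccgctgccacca
tRNA-Leu-TAG: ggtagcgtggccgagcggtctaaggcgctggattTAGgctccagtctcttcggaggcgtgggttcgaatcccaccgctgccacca
tRNA-Leu-CAG: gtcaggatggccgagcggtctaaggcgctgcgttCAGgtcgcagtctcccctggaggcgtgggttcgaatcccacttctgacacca
tRNA-Leu-CAA, first 38 bases: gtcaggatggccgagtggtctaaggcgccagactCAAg
tRNA-Leu-TAA: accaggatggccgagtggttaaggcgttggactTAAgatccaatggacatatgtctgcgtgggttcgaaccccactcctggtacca

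The AAG and TAG sequences differed at 2 of 85 positions, A35T in the anticodon and G54A in the variable arm (97.6% identity). A 5′ end or CCA end that matches these sequences and covers neither position fits both. The table nonetheless assigned 5′ ends with T at base 16 to TAG alone, in 19 sequences with 3727 counts. The CAG and CAA sequences differed at 7 of their first 38 bases, the first of them C16T, so 5′ ends of 15 nt were shared by both. Longer 5′ ends with C at base 16 were all assigned to CAG alone (28 sequences, 68105 counts). Those with T at base 16 were assigned to CAA and CAG together (10 sequences of up to 25 nt, 7702 counts) or to CAA alone (6 sequences, 355 counts). Without the CCA tail the joined AAG and TAG sequences had 82 bases and the joined CAG and TAA sequences 83. RefSeq gives the same lengths for these genes on GRCm38.p6, the assembly of mm10. It lists 5 AAG genes on chromosomes 7, 11, 13 and 14, 3 TAG genes on chromosomes 7, 11 and 14, 10 CAG genes on chromosomes 1, 3, 8 and 13, and 3 TAA genes on chromosomes 10, 13 and 19. The 4 CAA genes, on chromosomes 11 and 13, are 105 to 107 bases long, since they hold an intron, and the CAA sequence could be joined for 38 bases only. As examples, n-TLcag1 lies at chr3:24163025-24163107 and n-TLtaa3 at chr10:12922571-12922653. Of the tRNA-Leu CPM, 84.5% lay in sequences that matched a joined sequence exactly, 11.9% in sequences placed with mismatches at up to 20% of their bases, and 3.56% in sequences that were not placed.

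The fragments on which the results turn are shown next. Capitals in the 5′ ends mark bases 6 and 16, at which the 5′ ends of these tRNAs varied.
AAG+TAG 5′ end, 18 nt: ggtagCgtggccgagCgg
TAG 5′ end, 18 nt: ggtagCgtggccgagTgg
CAG 5′ end, 18 nt: gtcagGatggccgagCgg
CAA+CAG 5′ end, 15 nt: gtcagGatggccgag
TAA 5′ end, 15 nt: accagGatggccgag
Capitals in the next lines mark the CCA tail, then the stretch that ends at the G just before the T-loop adenosine, and then base 26 in the last pair of lines.
17-nt tail fragment (CCA end) shared by CAA+CAG: tcccacttctgacaCCA
17-nt tail fragment of CAG: tcccactcctgacaCCA
17-nt tail fragment of TAA: ccccactcctggtaCCA
CAA+CAG internal, bases 52 to 67: tggaggcGTGGGTTCG
TAA internal, bases 51 to 67: atgtctgcGTGGGTTCG
AAG internal, bases 43 to 66: agtctcttcgggggcGTGGGTTCG
TAA internal with T at base 26, bases 19 to 35: ttaaggcTttggactta
TAA internal with G at base 26, bases 19 to 35: ttaaggcGttggactta

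All tRNA fragments together came to 510519, 2563749 and 1713960 counts in hypoxia replicates 1, 2 and 3 and to 330787, 2217965 and 1629726 counts in normoxia replicates 1, 2 and 3, and values below keep that order. The libraries numbered 1 were the shallowest and stood apart from the other libraries in both groups. CPM is counts scaled to a total of 1000000 per library. The edgeR fit of sequences also scaled each library by a TMM factor. These factors were 1.45, 0.853 and 0.816 in hypoxia and 1.51, 0.820 and 0.802 in normoxia. CPM leaves them out. Dividing by them would lower both libraries numbered 1 against the other libraries, so levels between libraries and overlap of groups depend on the scaling. With 3 libraries against 3, an exact permutation test cannot give a p below 0.1, and a p at that limit means only that the groups did not overlap. Of 172 sums, shares and ratios compared in this way, 12 (6.98%) reached it, and no Benjamini-Hochberg adjusted p was below 0.987.

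The question of the study, which tRNA fragments respond to hypoxia, was put first to all tRNA-Leu fragments together. They reached 42004, 32276 and 31616 CPM in hypoxia and 39464, 28262 and 26569 CPM in normoxia. Each hypoxia library lay above the normoxia library of its number, by factors of 1.06, 1.14 and 1.19. The groups overlapped, since normoxia replicate 1 lay above hypoxia replicates 2 and 3 (two-sided exact permutation test, p = 0.5). A library pools many cells, so fewer cells with a fragment and less of it per cell cannot be told apart. In counts these levels stood for 21444, 82748 and 54189 reads in hypoxia and 13054, 62685 and 43300 in normoxia. The family made up 4.2%, 3.23% and 3.16% of all counts in hypoxia and 3.95%, 2.83% and 2.66% in normoxia. Distinct tRNA-Leu sequences numbered 1280, 1143 and 907 in hypoxia and 1087, 915 and 810 in normoxia, the most in the shallowest library of each group.

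Among the anticodons, fragments shared by AAG and TAG were the largest set in every library but normoxia replicate 3, where CAG led. They held 15208, 10505 and 10700 CPM in hypoxia and 12111, 8941 and 7677 CPM in normoxia. Hypoxia was higher in each pair of same-numbered libraries, by 1.26, 1.18 and 1.39 times, but the groups overlapped (exact p = 0.3). Fragments of CAG alone had 7989.9, 9663 and 8964 CPM in hypoxia and 7799.6, 8707 and 9169 CPM in normoxia, with hypoxia higher in pairs 1 and 2 only (exact p = 0.7). Fragments shared by CAA and CAG had 10068, 6011 and 5853 CPM in hypoxia and 10378, 5394 and 4716 CPM in normoxia. In CPM they differed more between replicate numbers than between groups, with both libraries numbered 1 far above the other 4 (exact p = 0.6). Scaling by the TMM factors would lower that excess. TAA fragments stood at 4070.4, 3135 and 2596 CPM in hypoxia and 4124, 2788 and 2953 CPM in normoxia (exact p = 0.9).

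The sequences that belong to 1 anticodon of the AAG and TAG pair were much fewer. TAG alone had 1587, 1270 and 1449 CPM in hypoxia and 1596, 996 and 882 CPM in normoxia. In replicates 2 and 3 hypoxia was 1.28 and 1.64 times as high, and in replicate 1 the groups were level at a ratio of 0.994 (exact p = 0.4). AAG alone had 964, 454 and 526 CPM in hypoxia and 1046, 331 and 262 CPM in normoxia, again higher in hypoxia in replicates 2 and 3 only (exact p = 0.6). CAA alone followed the same order of libraries, with 1585, 923 and 1135 CPM in hypoxia and 1877, 780 and 641 CPM in normoxia (exact p = 0.8). Over the 7 sets that held at least 1% of tRNA-Leu counts, every exact p adjusted to 0.9.

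In CPM no tested set was free of overlap, against 1.79% of all 112 tested sets with hypoxia higher and 4.46% with hypoxia lower. The shares of the family have no such background over other sets, and 2 of the 7 did not overlap. AAG+TAG fragments formed 36.2%, 32.6% and 33.8% of tRNA-Leu counts in hypoxia and 30.7%, 31.6% and 28.9% in normoxia, so that every hypoxia library lay above every normoxia library (exact p = 0.1). TAA fragments formed 9.69%, 9.71% and 8.21% in hypoxia and 10.5%, 9.86% and 11.1% in normoxia, with every hypoxia library below every normoxia library (exact p = 0.1). The 5 other sets of at least 1% overlapped in their shares, at exact p of 0.3 to 0.9. These shares are parts of 1 whole, so a rise of 1 set lowers the others.

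**Figure D1:**
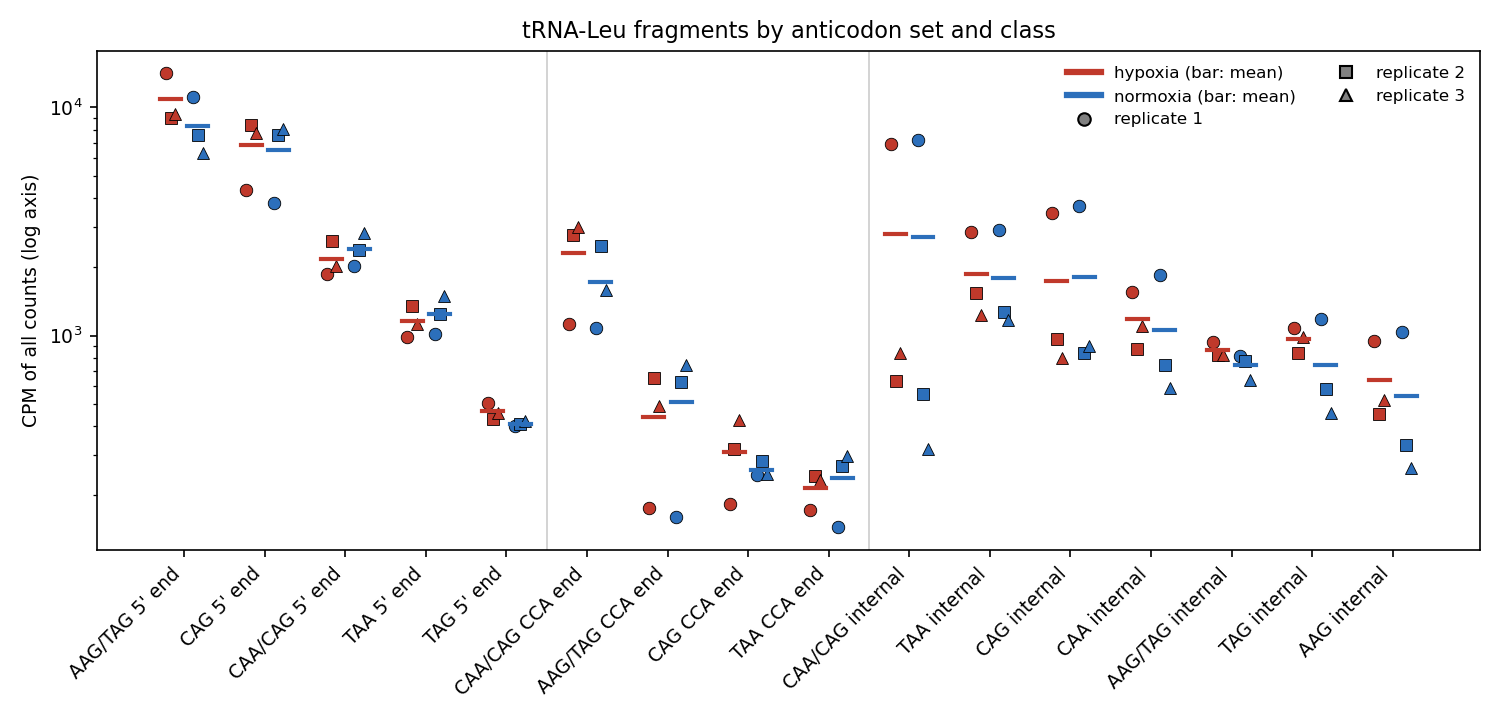
Levels of the tRNA-Leu groups (anticodon set and position class) in CPM on a log axis, 1 point per library, with hypoxia left of normoxia in each group and the replicate number marked. AAG+TAG 5′ ends have the highest mean, at 9026 to 14088 CPM in hypoxia and 6290.0 to 11134 CPM in normoxia, and both libraries numbered 1 lie far above the others for CAA+CAG internal fragments.

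The 5′ ends carried most of the family. They made up 51.9%, 67.7% and 65.6% of tRNA-Leu counts in hypoxia and 46.7%, 67.9% and 71.9% in normoxia (exact p = 0.9). Their summed level was 21792, 21842 and 20751 CPM in hypoxia and 18414, 19179 and 19090 CPM in normoxia, where the lowest hypoxia library lay above the highest normoxia library (exact p = 0.1). Of the 4 classes this was the only sum whose groups did not overlap in CPM. That separation depends on the scaling. Dividing by the TMM factors of the sequence fit would place the shallowest hypoxia library below the deeper normoxia libraries, so the groups would then overlap. The means were 21462 ± 616 CPM in hypoxia and 18894 ± 419 CPM in normoxia (SD, n = 3 each), a difference of 2567 CPM.

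AAG+TAG 5′ ends, whose means differed by 2513 CPM, were the largest group of 5′ ends by mean and the widest in difference. They stood at 14088, 9026 and 9384 CPM in hypoxia and 11134, 7535 and 6290.0 CPM in normoxia, higher in hypoxia in every pair by 1.27, 1.20 and 1.49 times, while normoxia replicate 1 exceeded hypoxia replicates 2 and 3. TAG 5′ ends, whose leading member carries T at base 16, had 507, 432 and 459 CPM in hypoxia and 402, 409 and 423 CPM in normoxia, without overlap (exact p = 0.1). CAG 5′ ends stood at 4331, 8378 and 7732 CPM in hypoxia and 3824, 7585 and 8023 CPM in normoxia, and overlapped. CAA+CAG 5′ ends, which are mostly the 15-nt fragment that both tRNAs share, had 1869, 2611 and 2015 CPM in hypoxia and 2019, 2367 and 2815 CPM in normoxia. TAA 5′ ends had 987, 1347 and 1129 CPM in hypoxia and 1016, 1247 and 1487 CPM in normoxia. In these last 3 groups the sign of the difference changed between pairs.

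**Figure D2:**
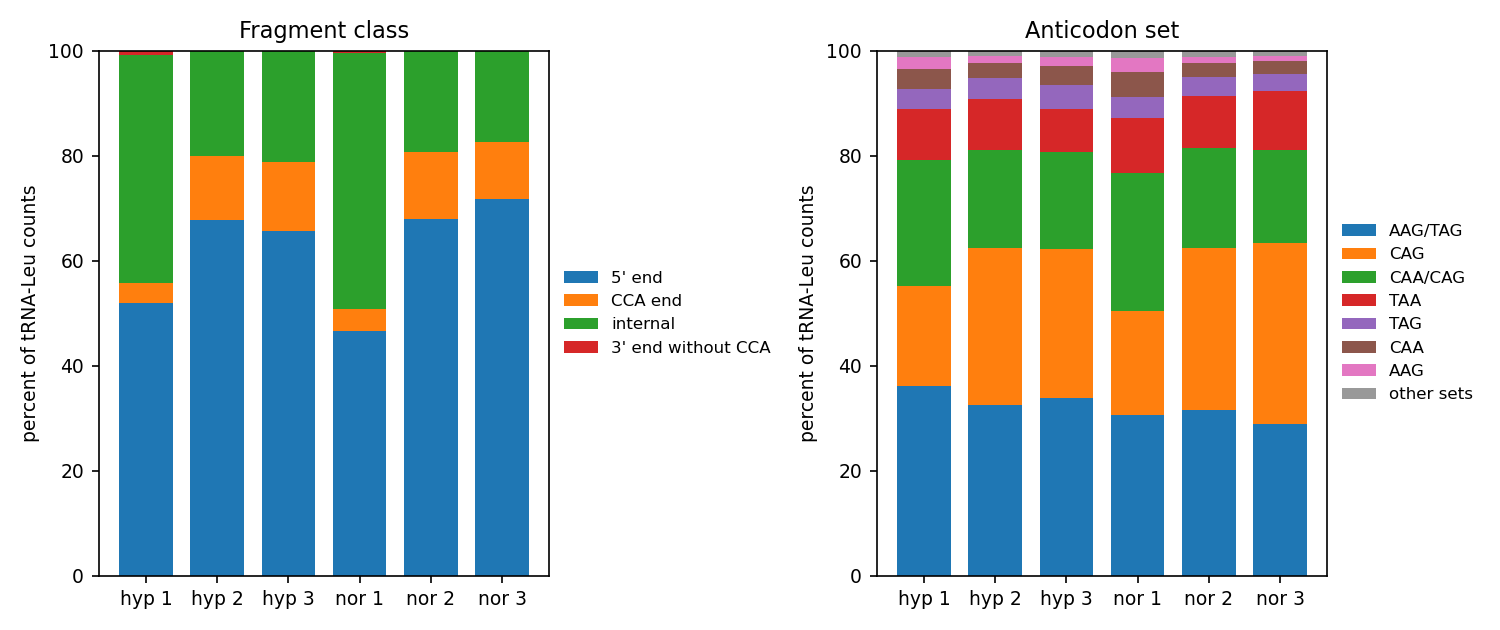
Shares of tRNA-Leu counts in percent, as stacked bars from 0, by position class (left panel) and anticodon set (right panel), for hypoxia replicates 1 to 3 left of normoxia replicates 1 to 3. The 5′ end share is 51.9% and 46.7% in hypoxia and normoxia replicate 1 and 65.6% to 71.9% in the other 4 libraries, and internal fragments fill the difference.

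Most 5′ ends stopped in the D loop. Fragments of 18 nt, which end in the D loop after the bases cgg or tgg, formed 55.5%, 47.6% and 52.2% of the tRNA-Leu 5′ ends in hypoxia and 45.9%, 47.8% and 41.6% in normoxia (exact p = 0.2). Among CAG 5′ ends alone that share was 63.9%, 63.7% and 62.8% in hypoxia and 46.7%, 61.6% and 56.1% in normoxia, without overlap (exact p = 0.1). The 16-nt share of all 5′ ends went the other way, at 5.55%, 6.57% and 6.48% in hypoxia and 9.70%, 6.82% and 7.88% in normoxia, also without overlap (exact p = 0.1). Fragments of 15 nt formed 20.8%, 16.6% and 14.7% in hypoxia and 23.4%, 15.95% and 17.8% in normoxia. Those of 25 nt, which end close before the anticodon stem, formed 4.89%, 12.9% and 12.0% in hypoxia and 5.65%, 13.3% and 14.5% in normoxia. The 25-nt share was low in both libraries numbered 1. Fragments of 35 nt, which would end in the anticodon, did not exceed 0.684% of 5′ ends in any library.

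The anticodon sets differed in their most frequent length, in part through the way they are defined. In CAG, AAG+TAG and TAG 5′ ends 18 nt was the most frequent of the lengths compared (15, 16, 18, 25 and 35 nt) in every library but one, with 62.8% to 63.9% of CAG 5′ ends in hypoxia and 46.7% to 61.6% in normoxia. The exception was TAG in normoxia replicate 3, where 25 nt led with 26.8% against 24.1%. No 5′ end of 15 nt was assigned to CAG or to TAG alone, since it does not reach base 16. Their 18-nt shares are therefore raised by the definition of the sets, while AAG+TAG did hold 5′ ends of 15 nt. In TAA 5′ ends 15 nt led, with 60.3%, 56.0% and 59.7% in hypoxia and 63.1%, 54.5% and 55.0% in normoxia. CAA+CAG 5′ ends were also mostly of 15 nt, at 77.0%, 64.9% and 64.8% in hypoxia and 78.1%, 61.9% and 61.4% in normoxia. Longer 5′ ends with C at base 16 are counted under CAG alone, so the way the set is defined favours 15 nt. It also held longer members with T at base 16, and its 25-nt share was 5.14%, 15.1% and 18.6% in hypoxia and 4.19%, 19.3% and 15% in normoxia.

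**Figure D3:**
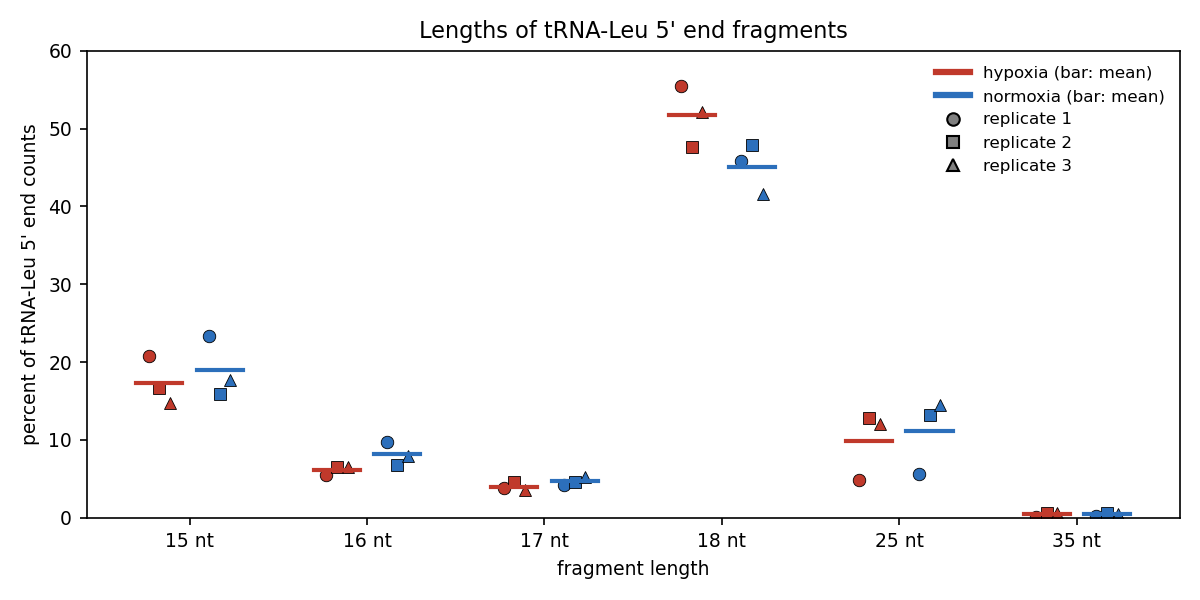
Length of tRNA-Leu 5′ ends as percent of the 5′ end counts of each library, hypoxia left of normoxia, with 1 point per library. The 18-nt fragments reach 47.6% to 55.5% in hypoxia and 41.6% to 47.8% in normoxia, and the 25-nt share is 4.89% and 5.65% in hypoxia and normoxia replicate 1 and at least 12.0% elsewhere.

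Taking the family as a whole, 15 to 19 nt fragments formed 76.3%, 81.6% and 83.9% of the counts in hypoxia and 72.7%, 81.6% and 77.7% in normoxia (exact p = 0.4). Fragments of 25 to 29 nt formed 9.23%, 10.1% and 9.10% in hypoxia and 10.9%, 10.4% and 12.4% in normoxia, with all hypoxia libraries below all normoxia libraries (exact p = 0.1). Fragments of 30 to 45 nt, the size of fragments cut in the anticodon loop, formed 3.90%, 1.5% and 1.38% in hypoxia and 4.13%, 1.23% and 1.28% in normoxia (exact p = 0.9). Both libraries numbered 1 held the highest share of these long fragments.

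The most abundant single fragments were 5′ ends of 18 nt. The AAG+TAG fragment ggtagCgtggccgagCgg had 7439.5, 3558 and 4337 CPM in hypoxia and 5411, 3188 and 2180 CPM in normoxia. It was higher in hypoxia in every pair, the groups overlapped through normoxia replicate 1, and its log2 change in edgeR's quasi-likelihood test was 0.52 (SE 0.49, adjusted p = 0.9999). The CAG fragment gtcagGatggccgagCgg had 2768, 5328 and 4852 CPM in hypoxia and 1787, 4669.6 and 4499 CPM in normoxia, and was likewise higher in each pair with overlapping groups (log2 change 0.18, SE 0.72). The TAG fragment ggtagCgtggccgagTgg had 264, 137 and 202 CPM in hypoxia and 178, 102 and 102 CPM in normoxia (log2 change 0.68, SE 0.49), with hypoxia replicate 2 below normoxia replicate 1. The 15-nt CAA+CAG fragment gtcagGatggccgag differed in sign between pairs, with 1439.7, 1694 and 1306 CPM in hypoxia and 1578, 1466 and 1727 CPM in normoxia. The 15-nt TAA fragment accagGatggccgag had 319, 394 and 396 CPM in hypoxia and 336, 370 and 452 CPM in normoxia.

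The 5′ ends varied at single bases, which were chosen after their values were seen and whose source was not tested. Among 5′ ends that begin with GGTAG, T instead of C at base 6 was present in 12.1%, 18.2% and 17.9% of counts in hypoxia and 10.98%, 18.7% and 21.3% in normoxia. Among 5′ ends that begin with ACCAG, those of TAA, A instead of G at base 6 was present in 44.8%, 47.3% and 46.3% in hypoxia and 45.8%, 46.3% and 47.5% in normoxia, nearly the same in all 6 libraries. Among CAG and CAA 5′ ends of at least 16 nt, T at base 16 was present in 9.20%, 10.3% and 8.75% in hypoxia and 10.7%, 10.99% and 12.4% in normoxia, without overlap (exact p = 0.1). These T forms are the ones assigned to CAA+CAG or to CAA alone, so they cannot be counted as CAA.

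CCA ends formed 3.95%, 12.3% and 13.1% of tRNA-Leu counts in hypoxia and 4.14%, 12.9% and 10.8% in normoxia (exact p = 0.8). Their 25 sequences were 15 to 20 nt long, and the 17-nt fragments, which begin at the end of the T loop, formed 61.0%, 52.3% and 51.7% of them in hypoxia and 63.0%, 53.8% and 55.7% in normoxia. CCA ends of 19 nt or longer, which would hold the T-loop adenosine, made up 3.43%, 0.108% and 0.0141% in hypoxia and 3.15%, 0.532% and 0.171% in normoxia. In CCA ends of the other nuclear tRNAs, fragments of 19 nt or longer made up 30.2%, 6.79% and 6.34% in hypoxia and 29.5%, 7.21% and 8.31% in normoxia. The long form was thus rarer among tRNA-Leu CCA ends in each of the 6 libraries, and in both kinds it was most frequent in the libraries numbered 1.

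No CCA end of 22 nt, the length of the known tRNA-Leu-CAG fragment, was counted in any library. A count of 0 allows up to 5.88, 1.17 and 1.75 CPM in hypoxia and 9.07, 1.35 and 1.84 CPM in normoxia at 3 counts per library, a limit that covers counting error only. As a share of tRNA-Leu CCA ends, that limit was 0.355%, 0.0295% and 0.0422% in hypoxia and 0.556%, 0.0371% and 0.0641% in normoxia. Other nuclear tRNAs had CCA ends of 22 nt at 0.331%, 0.165% and 0.283% of their CCA ends in hypoxia and 0.325%, 0.122% and 0.244% in normoxia. In both libraries numbered 1 the limit lay above that share, so the absence cannot be set apart from low counts there.

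The leading CCA end, tcccacttctgacaCCA of CAA+CAG, had 695, 1418 and 1576 CPM in hypoxia and 729, 1304 and 817 CPM in normoxia. It was higher in hypoxia in pairs 2 and 3 and lower in pair 1, and the groups overlapped (log2 change 0.39, SE 0.66, and 0.06 to 0.92 with 1 library left out). Its form with 1 base changed, tcccactcctgacaCCA, was assigned to CAG alone and had 139, 185 and 186 CPM in hypoxia and 178, 131 and 144 CPM in normoxia. The TAA CCA end ccccactcctggtaCCA had 58.8, 115 and 102 CPM in hypoxia and 39.3, 126 and 129 CPM in normoxia. Summed by group, CAA+CAG CCA ends had 1126, 2756 and 2999 CPM in hypoxia and 1082, 2473 and 1580.0 CPM in normoxia, and AAG+TAG CCA ends 176, 651 and 491 CPM in hypoxia and 160, 624 and 746 CPM in normoxia. The 2 groups went opposite ways in replicate 3, and neither changed by the test.

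Completeness of the tail was read from the fragments that end in the last 4 positions. The full CCA made up 59.6%, 88.3% and 88.6% of them in hypoxia and 60.5%, 89.9% and 91.2% in normoxia (exact p = 0.5). Tails of CC made up 22.3%, 9.59% and 9.09% in hypoxia and 28.8%, 8.43% and 7.44% in normoxia. Fragments that stop before the tail made up 10.3%, 0.460% and 0.311% in hypoxia and 6.73%, 0.322% and 0.0779% in normoxia. The split again ran between the libraries numbered 1, with the highest shares of incomplete tails, and the other 4.

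Internal fragments formed 43.5%, 19.97% and 21.2% of tRNA-Leu counts in hypoxia and 48.7%, 19.2% and 17.3% in normoxia (exact p = 1.0). By group, CAA+CAG internal fragments showed the widest spread among libraries, at 6930.2, 631 and 837 CPM in hypoxia and 7204, 555 and 318 CPM in normoxia. Both libraries numbered 1 lay far above the other 4. CAG internal fragments had 3436, 964 and 799.9 CPM in hypoxia and 3691, 838 and 898 CPM in normoxia. TAA internal fragments had 2836, 1545 and 1231 CPM in hypoxia and 2908, 1267 and 1169 CPM in normoxia.

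Much of this spread lay at the T loop. Placed internal fragments that end in its TTC or TTCG reached 7122, 1189 and 1305 CPM in hypoxia and 7951, 788 and 623 CPM in normoxia. Those that fall neither there, nor in the first 27 bases, nor at an incomplete tail were also highest in the libraries numbered 1, at 7061, 2309 and 2240 CPM in hypoxia and 6962, 2026 and 1792 CPM in normoxia. Placed internal fragments that end at the last G before the T-loop adenosine reached 5921, 663 and 579.9 CPM in hypoxia and 6742, 408 and 376 CPM in normoxia. Sequences shared by CAG and other anticodons, such as CAA+CAG, were placed on the CAG sequence where they matched it exactly. Values on that sequence are therefore not those of CAG alone. On the CAG sequence the 2 libraries numbered 1 held 4407 CPM in hypoxia and 5030.4 CPM in normoxia at that position, base 67, against 94.4 and 104 CPM in hypoxia replicates 2 and 3 and 51.9 and 47.9 CPM in normoxia replicates 2 and 3. Base 64, at the first T of the loop stretch TTCG, showed the same pattern, with 2106, 69.8 and 108 CPM in hypoxia and 1992, 102 and 31.3 CPM in normoxia. The fragment tggaggcGTGGGTTCG had 905, 57.0 and 79.4 CPM in hypoxia and 843, 39.7 and 12.3 CPM in normoxia, so it was higher in hypoxia in each pair although the groups overlapped (log2 change 0.33, SE 1.41). On the TAA sequence the libraries differed less at base 67, with 833, 362 and 315 CPM in hypoxia and 925, 217 and 213 CPM in normoxia, and the fragment atgtctgcGTGGGTTCG had 210, 178 and 196 CPM in hypoxia and 272, 119 and 112 CPM in normoxia. The AAG fragment agtctcttcgggggcGTGGGTTCG had 186, 19.1 and 12.8 CPM in hypoxia and 191, 17.6 and 7.36 CPM in normoxia. Depth, tails and fragment lengths also set the libraries numbered 1 apart, as given above, and their part in this excess was not tested.

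**Figure D4:**
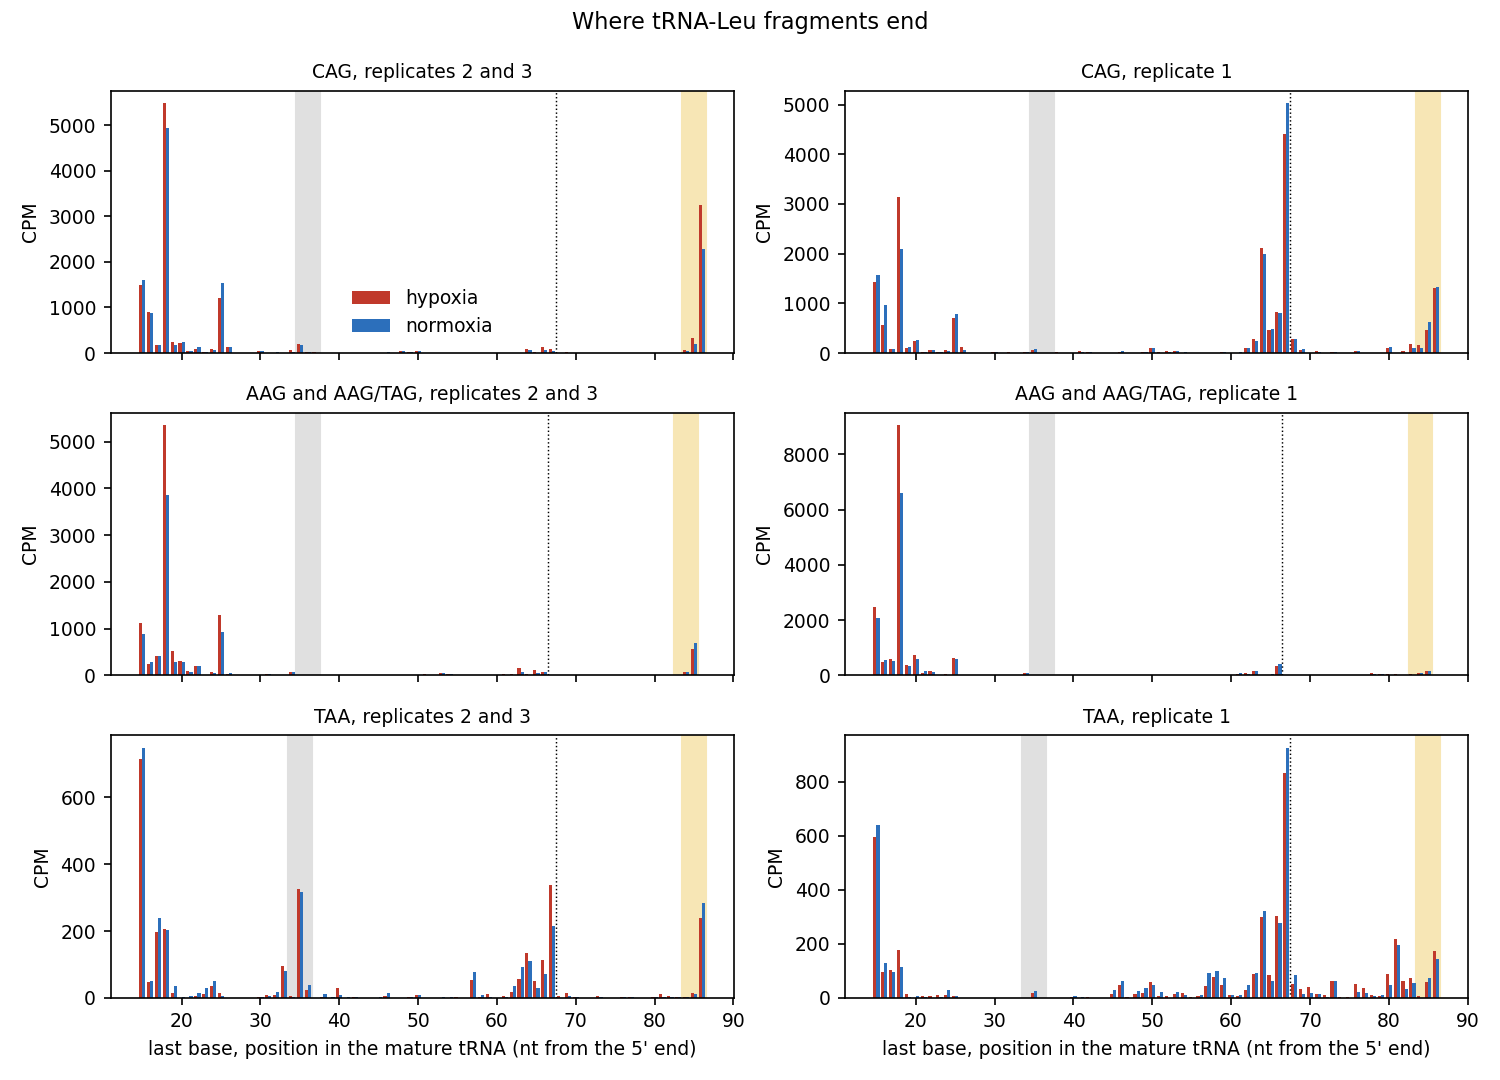
Last base of tRNA-Leu fragments along the joined CAG, AAG (with AAG+TAG) and TAA sequences, in CPM by position from base 1, for hypoxia left of normoxia at each position, with the mean of replicates 2 and 3 in the left panels and replicate 1 in the right panels, each on its own linear scale from 0. The CAG panels include sequences shared with other anticodons, such as CAA+CAG. Grey marks the anticodon, the dotted line the place right after the last G before the T-loop adenosine, and yellow the CCA tail. In replicates 2 and 3, ends at base 18 (D loop) lead on the CAG and AAG sequences, followed on CAG by the end of the CCA tail. On TAA, ends at base 15 lead there. In replicate 1 the CAG sequence has a peak at base 67 of 4407 CPM in hypoxia and 5030.4 CPM in normoxia.

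One kind of TAA fragment ran against that pattern. Fragments that cover base 26, the guanosine before the anticodon stem, mostly read T there: 15.4%, 94.3% and 96.4% in hypoxia and 18.2%, 94.3% and 93.3% in normoxia. The T form had 3.92, 540 and 424 CPM in hypoxia and 6.05, 524 and 398 CPM in normoxia, which in each library numbered 1 was 2 counts. The G form stayed low in all libraries, at 21.6, 32.4 and 15.8 CPM in hypoxia and 27.2, 31.6 and 28.8 CPM in normoxia. The T form was therefore nearly missing from the libraries numbered 1, in which other TAA internal fragments were the most frequent, and overlapped between hypoxia and normoxia (exact p = 0.8). Of its 3926 counts 90.2% ended at bases 33 to 36, in or beside the anticodon, and 0 were 5′ ends. Its leading member ttaaggcTttggactta had 1.96, 125 and 81.1 CPM in hypoxia and 3.02, 129 and 82.8 CPM in normoxia, and the same fragment with G, ttaaggcGttggactta, 0.00, 6.63 and 9.34 CPM in hypoxia and 3.02, 0.451 and 3.07 CPM in normoxia. At the matching base 27 of the other tRNA-Leu, G was read in 3028 counts and A in 21 counts placed on CAG, and G in all 1072 counts placed on AAG. This base was singled out after its values were seen, and the source of the T was not tested.

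Fragments that span the whole anticodon were scarce and highest in the libraries numbered 1 for each of the 3 anticodons below. For CAG they had 609, 128 and 142 CPM in hypoxia and 641, 129.8 and 119 CPM in normoxia, for TAA 425, 111 and 127 CPM in hypoxia and 532, 108 and 160.1 CPM in normoxia, and for TAG 249, 162 and 143 CPM in hypoxia and 281, 121 and 138 CPM in normoxia. For AAG the anticodon was almost unseen. The loop ggattAAGgct was present in 1 sequence with 1 count, its inosine-read form ggattGAGgct in 0 sequences, and the TAG loop ggattTAGgct in 113 sequences with 937 counts. The AAG stretch of the joined sequence therefore rests on a single count.

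Internal fragments of AAG alone and of TAG alone were higher in hypoxia in replicates 2 and 3, and lower in replicate 1. TAG internal fragments had 1079, 836 and 988 CPM in hypoxia and 1188, 585 and 458 CPM in normoxia, which is 0.908, 1.43 and 2.16 times. AAG internal fragments had 946, 454 and 525 CPM in hypoxia and 1039.9, 331 and 262 CPM in normoxia. Those shared by AAG and TAG were less spread, at 934, 826 and 824 CPM in hypoxia and 813, 777 and 641 CPM in normoxia, and did not overlap (exact p = 0.1).

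The tests across features gave no call. By edgeR's quasi-likelihood test with adjustment over all 6452 tsRNAs tested, 0 of the 316 tested tRNA-Leu sequences, which hold 92.9% of tRNA-Leu counts, passed an adjusted p of 0.05, against 0.0% of all tested. At an unadjusted p below 0.05, 1 of them was higher in hypoxia and 0 were lower, against 0.279% and 0.418% of all tested. By DESeq2 0 passed, with 1 higher and 3 lower before adjustment (against 0.527% and 0.775% of all). By limma voom 0 passed, with 1 higher and 0 lower before adjustment (against 0.868% and 0.821% of all). With the replicate number as a block 10 tsRNAs passed (0.155%), 0 of them tRNA-Leu. Of the 21 tested groups of anticodon set and class 0 passed, against 0.0% of 276 (0 higher and 0 lower before adjustment, against 0.725% and 0.362%). Of the 10 tested anticodon sets 0 passed, against 0.0% of 112 (0 higher and 0 lower before adjustment, against 0.0% and 0.893%). The median log2 change of the tested tRNA-Leu sequences was 0.12, and that of all tested tsRNAs 0.02.

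AAG+TAG 5′ ends had a log2 change of 0.43 (SE 0.32, edgeR adjusted p = 0.999). With the replicate block, where they had the smallest p of the tRNA-Leu groups, the change was again 0.43 with a smaller error (SE 0.14, edgeR adjusted p = 0.372).

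The libraries numbered 1 decided whether internal fragments were called. Without both of them, an alternative chosen after seeing the data, TAG internal fragments rose by a log2 change of 0.83 (SE 0.20, edgeR adjusted p = 0.0477), where 13 of 269 groups passed (4.83%). With the block as well, 18 of 269 groups passed (6.69%). TAG internal fragments were among them (0.83, SE 0.23, edgeR adjusted p = 0.00693), as were CAA+CAG internal fragments (log2 change 0.81, SE 0.25, edgeR adjusted p = 0.0221). The 4 libraries of that fit leave little beyond the block and the group from which to estimate error. Their same-numbered deviations had a correlation of -0.02, so the block has little basis there. With all 6 libraries the same changes were 0.57 (SE 0.37) and 0.20 (SE 1.08) and did not pass (edgeR adjusted p = 0.999 for both). The share of tRNA-Leu groups that passed, 1 of 20 and 2 of 20, was near the shares of all groups just given. Among single sequences these 2 fits called 0 tRNA-Leu fragments, where they called 0.0154% and 0.4% of all tested, and among anticodon sets 0 of 10, where they called 0.0% and 8.93%.

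Counts of directions leaned towards higher in hypoxia, a lean that was not tested. Of the 316 tested sequences 58 (18.4%) were higher in hypoxia in all 3 pairs, against 15% of all tested tsRNAs, and 26 (8.23%) were lower in all 3 pairs, against 13.4%. Groups did not overlap with hypoxia higher in 12 (3.80%), against 2.32%, and with hypoxia lower in 9 (2.85%), against 2.51%. By set, 14 of 63 AAG+TAG sequences were higher in all pairs and 5 lower, 9 of 31 TAG sequences higher and 2 lower, and 11 of 37 CAA+CAG sequences higher and 3 lower. For CAG the counts were 5 and 4 of 43 and for TAA 7 and 6 of 73. By class the lean lay mostly in internal sequences, where 42 of 218 were higher in all pairs and 15 lower. Among 5′ ends 13 of 78 were higher and 10 lower, with a median log2 change of -0.1, and among CCA ends 2 of 19 were higher and 1 lower. The sequences share tRNAs and overlap one another, so they are not independent. Of the 21 groups 5 (23.8%) were higher in all pairs, against 19.9% of all groups, and 0 were lower in all pairs, against 17.4%. The groups that did not overlap were 2, both with hypoxia higher (against 2.54% of all groups), and 0 with hypoxia lower (against 3.62%). Of the 10 sets 2 were higher in all pairs (against 17%) and 0 lower (against 23.2%), and 0 did not overlap, against 1.79% with hypoxia higher and 4.46% with hypoxia lower.

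**Figure D5:**
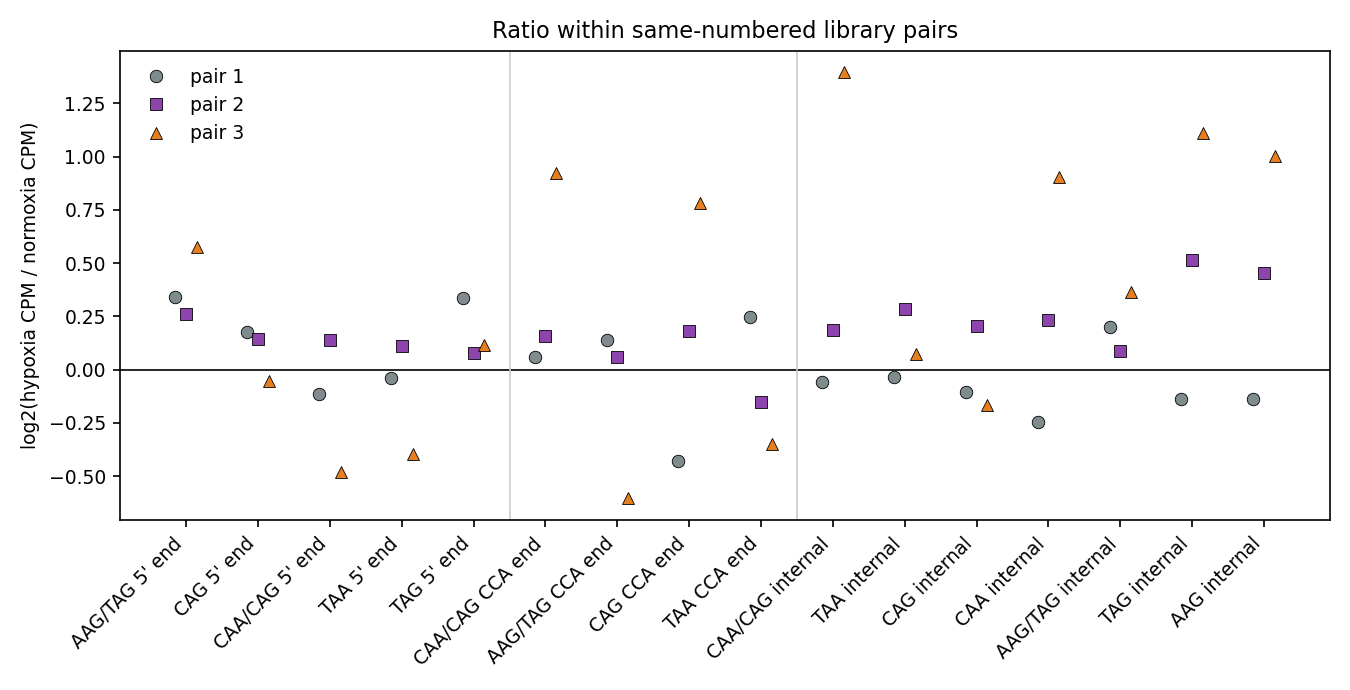
Ratio of hypoxia to normoxia in CPM for each pair of same-numbered libraries, as log2, for the tRNA-Leu groups of anticodon set and class, with a line at 0, where the ratio is 1. AAG+TAG 5′ ends lie above the line in all 3 pairs (ratios of 1.27, 1.20 and 1.49), and TAG internal fragments lie below it in pair 1 (0.908) and above it in pairs 2 and 3 (1.43 and 2.16).

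The 4 higher and 4 lower tRNA-Leu fragments with the smallest unadjusted p were taken among those with a mean of at least 10 CPM. The smallest p of the 4 higher ones was that of atcccacttctgacac of CAA+CAG, whose groups overlapped. It had 50.9, 13.3 and 4.67 CPM in hypoxia and 15.1, 1.80 and 0.614 CPM in normoxia (log2 change 2.29, SE 1.21). Only agcgtggccgagcggt of AAG+TAG, bases 4 to 19, was without overlap among the 4 higher ones. Its levels were 23.5, 38.2 and 16.3 CPM in hypoxia and 15.1, 4.51 and 14.1 CPM in normoxia (log2 change 1.28, SE 0.77, edgeR adjusted p = 0.9999, and 0.68 to 1.95 with 1 library left out). On the lower side, caggatggccgagcggtctaagg of CAG, bases 3 to 25, had 9.79, 5.46 and 5.25 CPM in hypoxia and 27.2, 13.1 and 16.6 CPM in normoxia, also without overlap (log2 change -1.47, SE 0.68, edgeR adjusted p = 0.9999). Of the 4 lower ones only atatgtctgcgtggg of TAA overlapped. The 5′ end gtcagGatggccgagTggtcta, of 22 nt with T at base 16 and assigned to CAA+CAG, had 27.4, 48.4 and 25.1 CPM in hypoxia and 48.4, 56.8 and 101 CPM in normoxia (log2 change -1.08, SE 0.71, and -1.65 to -0.48 with 1 library left out). These fragments are scarce, and each of the 8 chosen in this way had an edgeR adjusted p of 0.9999.

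The mix of classes in tRNA-Leu was set against nuclear tRNA-Ser and against all other nuclear mature tRNA fragments together, in the same libraries. No other single family was compared. Nuclear tRNA-Ser, the other family with a long variable arm, had 1866 sequences. The 5′ end share averaged 61.9% ± 10.1 in tRNA-Leu and 84.5% ± 14.9 in tRNA-Ser (SD, n = 6 libraries), lower in tRNA-Leu in 6 of 6 libraries (two-sided exact sign-flip permutation test, p = 0.031, the smallest that 6 libraries allow, adjusted p = 0.0347 over 10 comparisons). That test takes the 6 libraries as independent. With same-numbered libraries averaged to 3 units, an alternative added after seeing the data, the exact p cannot fall below 0.25, and none of the comparisons with other tRNAs passed. CCA ends averaged 9.54% ± 4.33 in tRNA-Leu and 0.438% ± 0.243 in tRNA-Ser, and internal fragments 28.3% ± 13.9 in tRNA-Leu and 12.2% ± 11.7 in tRNA-Ser, both higher in tRNA-Leu in 6 of 6 libraries at the same exact p over 6 libraries. The 3′ ends without CCA averaged 0.229% ± 0.298 in tRNA-Leu and 2.78% ± 3.52 in tRNA-Ser, lower in tRNA-Leu in 6 of 6 libraries at that p. Fragments of 30 nt or longer averaged 2.24% ± 1.38 in tRNA-Leu and 2.93% ± 3.96 in tRNA-Ser, a difference of -0.690 ± 2.62 percentage points that did not pass the test (exact p = 0.531).

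Against all other nuclear mature tRNA fragments the same tests gave a higher 5′ end share (61.9% in tRNA-Leu and 49.9% ± 10.4 in the others), a higher CCA end share (9.54% in tRNA-Leu and 4.41% ± 0.592 in the others) and a lower share of fragments of 30 nt or longer (2.24% in tRNA-Leu and 18.9% ± 2.45 in the others), each in 6 of 6 libraries at an exact p of 0.031. Internal fragments were lower in tRNA-Leu here (28.3% in tRNA-Leu and 44.3% ± 9.26 in the others), the opposite of the comparison with tRNA-Ser, and 3′ ends without CCA were lower as well (0.229% in tRNA-Leu and 1.43% ± 1.84 in the others), both in 6 of 6 libraries at the same p. The level of tRNA-Leu per tRNA-Ser was 0.678, 0.843 and 0.813 in hypoxia and 0.766, 0.779 and 0.756 in normoxia (exact p = 1.0), with the hypoxia libraries on both sides of the normoxia libraries.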

How the data were processed

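Small RNA of 3 hypoxia and 3 normoxia cultures was sequenced, and the authors deposited whole-number counts per sequence, not normalized, with tRNA annotations. The build is mm10, per the submitters' processing notes. Which aligner and tRNA reference were used, and any filter, is not given in the sources used here. Titles of the samples gave groups and replicate numbers. Totals ran from 330787 to 2563749 counts per library, and a count of 3 is worth 1.17 to 9.07 CPM. No molecular identifiers are described in the labels, so limits cover counting error only.

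Each sequence was counted once, under its own set of annotations. CPM used plain library totals. Whole tables were fitted, namely of sequences (6452 tested of 38798), annotation sets by class (276 tested) and annotation sets (112 tested). The group was the single term. The main tool was edgeR 4.0.16 (R 4.3.3), with TMM scaling, filterByExpr and quasi-likelihood F-tests, and calls were made at a Benjamini-Hochberg adjusted p under 0.05. The SE of an edgeR log2 change was derived from the test, as its absolute value divided by the square root of F. DESeq2 1.42.0, limma 3.58.1 (voom), other scalings and filters, the replicate block and each library left out were alternatives, and leaving out both libraries numbered 1 was added after seeing the data, as was averaging same-numbered libraries in the comparisons with other tRNAs. Single values were compared by exact permutation in Python 3.11.15. The fits were tested on simulated sequence counts with large changes, no replicate effect and dispersions below the common dispersion of these sequences. That check does not show how the fits do on counts as spread as these. Mature tRNA sequences were joined from fragments that overlap by 14 bases or more, and gene counts and lengths are from RefSeq (GRCm38.p6).

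Same-numbered libraries deviated together from their group means over 6452 tsRNAs (correlations of 0.77, 0.51 and 0.43 for pairs 1, 2 and 3), so the numbers were treated as pairs in the block. Among replicates 2 and 3 alone the correlation was -0.02. Deviations from a group mean sum to 0, so the values for pairs 2 and 3 rest on both libraries numbered 1 standing apart. They do not show that replicates 2 and 3 are pairs. Common dispersion fell to 0.213 with the block, against 0.706 without it.

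The members, lists and tests were chosen with earlier results of these data known. Named sequences are the most abundant of each class with at least 5% of a set that holds at least 1% of tRNA-Leu counts, the 4 higher and 4 lower with the smallest unadjusted p among those with a mean of at least 10 CPM, and the leading CCA ends of 17 to 18 nt and of 22 nt. Sequences with a T or G at base 26 of TAA and the bases 6 and 16 were chosen after their values were seen.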

Additional observations from a re-analysis of the deposited data

How the results depend on the processing

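Other scalings, filters and tools and the replicate block left the counts of called tRNA-Leu sequences, groups and sets at 0. The paired fit with the replicate block changed no call of a tRNA-Leu sequence, group or set while all 6 libraries were kept. For AAG+TAG fragments as a set it gave a log2 change of 0.43 (SE 0.15, edgeR adjusted p = 0.283). Alternatives added after seeing the data moved the count of groups called higher in hypoxia to 1 without both libraries numbered 1, and to 2 with the replicate block without both libraries numbered 1. The share of internal fragments, hypoxia minus normoxia, turned to 2.32 percentage points without both libraries numbered 1.

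With pairs left out of the blocked fit, log2 changes turned sign for agcgtggccgagcgg (0.25 without pair 2), gtcagGatggccgag (0.05 without pair 3), accagGatggccgag (0.03 without pair 3) and ccccactcctggtaCCA (0.10 without pair 2 and 0.16 without pair 3), none of them called. The cause was not tested.

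Without both libraries numbered 1 only 4 libraries remain, and the exact test cannot fall below 0.05. The differences from tRNA-Ser were then -25.9 (5′ ends), 11.7 (CCA ends), 14.7 (internal), -0.54 (3′ ends without CCA) and 0.96 percentage points (30 nt or longer, which turned sign), and from other nuclear tRNAs 11.8, 7.51, -19.1, -0.24 and -16.3 in the same order.

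With the replicate block, as same-numbered libraries averaged to 3 units, the differences kept their size, at -22.6, 9.10, 16.1, -2.55 and -0.69 from tRNA-Ser and 12.1, 5.12, -15.98, -1.20 and -16.6 from other nuclear tRNAs in that order, but the exact p cannot fall below 0.25.

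With each library left out in turn, the differences from tRNA-Ser ranged from -24.5 to -21.4 (5′ ends), 8.42 to 10.2 (CCA ends), 15.2 to 16.7 (internal), -2.98 to -1.50 (3′ ends without CCA) and -1.04 to 0.15 percentage points (30 nt or longer), and from other nuclear tRNAs 11.7 to 12.3, 4.43 to 6.08, -17.3 to -15.0, -1.40 to -0.69 and -17.2 to -16.3. With 5 libraries the exact p cannot fall below 0.05 either. Hypoxia minus normoxia ranged, in percentage points of tRNA-Leu counts, from -8.13 to 4.53 (5′ ends), -2.07 to 3.43 (CCA ends), -7.83 to 9.95 (internal), -0.12 to 0.25 (3′ ends without CCA) and -0.77 to 1.01 (30 to 45 nt). For the sets it ranged from -56.7 to 351 CPM (AAG), -114 to 504 (CAA), -897 to 2256 (CAA+CAG), -81.9 to 755 (CAG) and -423 to 397 (TAA), while AAG+TAG stayed between 1027 and 3829 CPM and TAG between 139 and 496 CPM. Log2 changes ranged from -0.34 to 0.25 (accagGatggccgag), -0.47 to 0.24 (agcgtggccgagcgg), -0.03 to 0.49 (aggatggccgagcgg), -1.52 to 1.96 (agtctcttcgggggcGTGGGTTCG), -0.62 to 0.18 (ccccactcctggtaCCA), -0.39 to 0.15 (gtcagGatggccgag), -0.24 to 0.54 (gtcagGatggccgagCgg) and -1.45 to 3.17 (tggaggcGTGGGTTCG). The share of 3′ ends without CCA could not be given with the filter of at least 10 counts in 3 libraries, which left no such sequence. Depth limits the libraries numbered 1 most.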

Other observations

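Among the 84 annotation sets outside tRNA-Leu with a mean of at least 100 CPM, the 3 whose level was most like that of tRNA-Leu over the 6 libraries, by Pearson's r of log2 CPM, were tRNA-Ala-AGC (0.991), tRNA-Pro-TGG (0.971) and tRNA-Cys-GCA (0.968). tRNA-Ala-AGC had 5277, 4284 and 4339 CPM in hypoxia and 5251, 3927 and 3812 CPM in normoxia. tRNA-Pro-TGG had 14160.1, 4750.1 and 4271 CPM in hypoxia and 12933, 3836 and 3334 CPM in normoxia. tRNA-Cys-GCA had 12908, 9789 and 8227 CPM in hypoxia and 12664, 7698 and 7695 CPM in normoxia. In each of the 3, as in tRNA-Leu, both libraries numbered 1 were the highest, and the 6 libraries share their totals with all sets, so the likeness is a description of these libraries and carries no p.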
